A study of Mus musculus with 12 samples.

Results

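Immediate early genes of neuronal activity are genes that a neuron switches on within minutes of firing, before any new protein is made. Described here are 10 of them, as 10 rows of the deposited count table, found by their gene symbols: Egr1, Egr2, Egr3, Egr4, Arc, Npas4, Nr4a1, Nr4a2, Nr4a3 and Ier2. The table names 39756 genes, and all 10 were among the 17558 genes with enough counts to be tested. RNA was sequenced from the brains of 12 C57BL/6J mice in 3 groups of 4. The study's methods name the ischemic hemisphere as the tissue, although the Sham mice had no ischemia. The Sham group had sham surgery, and the Vehicle group had transient middle cerebral artery occlusion (tMCAO), a stroke model in which the vessel is blocked by a filament and later reopened. The LJP group had tMCAO and received Laminaria japonica polysaccharide (LJP), a sulfated polysaccharide from a brown alga. The labels name saline for the Vehicle group, and by the study's methods the Sham mice were given it as well. The labels put all 12 mice in the same batch and give no age, dose, or time of tissue collection. In the methods of the study all mice were male, and LJP was given by mouth daily from before surgery onwards. The model is a filament occlusion of one artery, and a whole hemisphere mixes infarcted with surviving tissue. Apart from replicate numbers, nothing in the labels ties mice of different groups to each other.

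Calcium that enters a firing neuron through NMDA receptors and voltage-gated channels activates kinases that phosphorylate CREB and the partners of serum response factor (SRF). These factors sit on the promoters of immediate early genes already and start transcription at once. CREB binds the cAMP response element (CRE) and SRF binds the CArG box. The products are mostly transcription factors that switch on a second wave of genes, such as Bdnf, while Arc acts directly at synapses. In resting adult cortex and hippocampus the genes are expressed at a basal level that follows ongoing synaptic activity, and several of them are also induced by injury, growth factors or stress in cells other than neurons.

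The promoters are shown for the sites of these factors. RefSeq promoter entries of build GRCm38.p6 were matched by symbol for 6 of the 10 genes, with 10 transcription starts in all, since Egr2 has 5. The genes with no entry were Egr1, Egr3, Arc and Ier2. The 250 bases before each start were searched on both strands for the CRE (TGACGTCA), its core (TGACG), which lies within the full CRE, the CArG box, the AP-1 site (TGAGTCA), the EGR site (GCGTGGGCG), the NBRE bound by NR4A proteins (AAAGGTCA), the TATA box (TATAAA) and the MEF2 site. The full CRE was in none of the 10 windows and in 1.55% of the 32851 windows of the same length in RefSeq. The core was in at least 1 window of each of the 6 genes, and 8 of the 10 windows held at least 2 of them. Of all 32851 windows, 17.8% held at least 1 core and 3.9% held at least 2. Below are the Egr4 and Nr4a1 windows, which overlap no GENCODE M21 exon, printed whole on the strand of the gene with the cores in capitals. The Egr4 window (minus strand, chr6:85513590-85513839) lies just before the gene, and the Nr4a1 window (plus strand, chr15:101266596-101266845) lies in an intron, before an internal start.

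Egr4: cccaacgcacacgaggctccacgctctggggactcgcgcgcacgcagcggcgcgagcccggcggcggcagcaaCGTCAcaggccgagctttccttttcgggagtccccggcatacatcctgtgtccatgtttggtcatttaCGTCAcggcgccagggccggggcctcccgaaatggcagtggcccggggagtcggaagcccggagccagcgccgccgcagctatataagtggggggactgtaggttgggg
Nr4a1: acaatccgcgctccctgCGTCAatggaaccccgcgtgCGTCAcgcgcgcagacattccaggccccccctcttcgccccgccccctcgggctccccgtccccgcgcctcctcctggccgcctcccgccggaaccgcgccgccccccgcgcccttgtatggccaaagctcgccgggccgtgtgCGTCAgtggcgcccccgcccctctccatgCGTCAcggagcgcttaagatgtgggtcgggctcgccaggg

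A further 4 stretches of 30 bases show sites of the other genes, with the named site in capitals. The capitals of the Nr4a2 and Nr4a3 stretches mark 1 of the 4 cores of each window (minus strand, chr2:57124004-57124253, and plus strand, chr4:48045055-48045304). The Npas4 stretch (minus strand, within chr19:4989972-4990221) marks the core that begins 179 bases before the start. The Nr4a2 and Npas4 stretches each hold a further core in lower case, at 111 and 169 bases before the start. The Egr2 stretch (plus strand, within chr10:67537619-67537868) is shown for its CArG box, which begins 72 bases before the start and stands close to a core at 55 bases.

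Nr4a2: gcccggccgggcTGACGgggccgctgacgc
Nr4a3: ctgtggcataaaTGACGtgccgagagagcg
Npas4: tctcccgttcgaCGTCAcgggatgacgtcg
Egr2: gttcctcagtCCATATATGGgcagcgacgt

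CArG boxes were found in 4 of the 5 Egr2 windows and in no window of the other 5 genes, against 1.47% of all windows. The letters TATAAA were found only in the Nr4a2 window, on the opposite strand at 164 bases before the start, against 12.4% of all windows. A search for these letters alone does not count variants such as tatataag, which the Egr4 and Npas4 windows hold. The AP-1 site (4.46% of all windows), the EGR site (0.536%), the NBRE (1.34%) and the MEF2 site (0.508%) were found in none of the 10. A match describes letters only and says nothing of binding, and the windows are not independent, since 3 of the Egr2 windows overlap and share their sites.

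Library totals lay between 17960353 and 22216315 counts, so that a count of 3, the limit a count of 0 allows, equals 0.129 to 0.173 CPM, which is counts for every 1000000 counts of the TMM-scaled library. These figures cover counting error only, and every member was above this limit in every mouse. Vehicle mice 1 and 2 stood apart from Vehicle mice 3 and 4, and the main results that rest on them are given with and without them below. Of the 9 genes other than Ier2, 8 had Vehicle mice 1 and 2 as the 2 lowest of all 12 mice. Ier2 had Vehicle mice 2 and 1 as the highest of all. The same mice stood apart in markers of other cells. Summed neutrophil markers were 165 and 40.3 CPM in Vehicle mice 1 and 2 and 0.754 and 5.33 in mice 3 and 4. They were 0.207 to 0.404 CPM in Sham and 0.256 to 1.11 CPM in LJP mice. Of these 7 markers none had enough counts in enough mice to be tested, and S100a9 was the highest on average. Endothelial and mural markers summed to 807 and 1760 CPM in Vehicle mice 1 and 2, 428 and 479 in mice 3 and 4, 323 to 351 in Sham and 299 to 392 in LJP mice. Averaged over all mice Flt1, a VEGF receptor, was the highest of these markers, while in Vehicle mice Cldn5, a tight junction protein, was (170 CPM against 124). Neuron markers were lowest in the same mice. Their sum was 8780 to 9550 CPM in Sham mice, 6970, 5430, 8130 and 8010 CPM in Vehicle mice 1 to 4, and 7760 to 9070 in LJP mice, and over all mice Slc17a7, the vesicular glutamate transporter of cortical excitatory neurons, was the highest of the 12 on average. In Sham mice Snap25, a presynaptic protein, was higher (1840 against 1550 CPM). Glial markers were abundant as well, as in a mixed hemisphere, with Slc1a2 of astrocytes at 2980 and Mbp of oligodendrocytes at 2660 CPM in Sham mice. The part of these marker changes in the results below was not tested.

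The table places Egr1 on chromosome 18 from 34861207 to 34864956, Egr2 on chromosome 10 from 67534469 to 67542188, Egr3 on chromosome 14 from 70077317 to 70082613, Egr4 on chromosome 6 from 85511121 to 85513589, Arc on chromosome 15 from 74669081 to 74672570, Nr4a1 on chromosome 15 from 101253902 to 101274795, Nr4a2 on chromosome 2 from 57106830 to 57124003, Nr4a3 on chromosome 4 from 48045078 to 48086447 and Ier2 on chromosome 8 from 84661331 to 84662852, with the build GRCm38. In Sham brains all 10 genes were present at a basal level. Per kilobase of the table's gene length, the mean level in Sham mice was highest for Egr1 (122 CPM per kilobase), followed by Arc (60), Egr3 (54.5), Egr4 (31), Nr4a1 (26.2), Nr4a2 (9.92), Ier2 (7.42), Nr4a3 (3.2), Egr2 (2.09) and Npas4 (0.927). The table gives Npas4 a length of 16747 bases and a span of 4984353 to 5003439 on chromosome 19, beyond the 4984355 to 4990316 of GENCODE, so its level per kilobase is understated and its count may take in reads from outside the GENCODE gene. The table lists lncRNA Gm32255 on the opposite strand over the beginning of Egr2, with 0 to 7 counts a mouse, and LOC105244150 on the same strand over the first bases of Nr4a2, with 8 to 30 counts. Sham mice resembled each other. The median coefficient of variation of the 10 genes was 8.49% in Sham mice, close to 8.39% over all genes tested. It was 58.3% in Vehicle mice (21.4% over all genes) and 30.1% in LJP mice (10.9%).

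**Figure D1:**
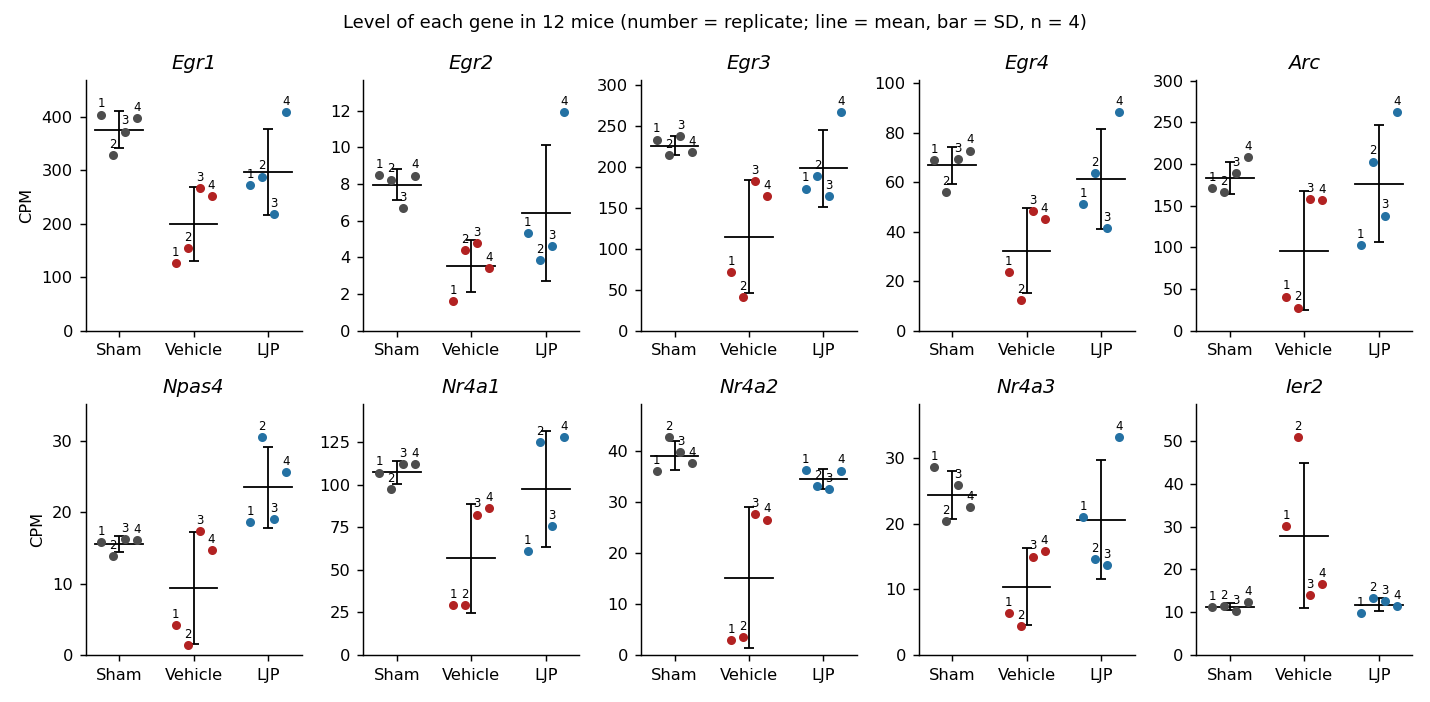
Level of each of the 10 genes in CPM (vertical axis, linear from 0) in the 12 mice of the Sham, Vehicle and LJP groups. Each point is a mouse with its replicate number, horizontal lines are means and bars are SD (n = 4). Vehicle mice 1 and 2 lie below Vehicle mice 3 and 4 in 8 of the panels and above them for Ier2.

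The first comparison, Vehicle against Sham, asks what ischemia and reperfusion did. Egr1, Egr2, Egr3, Egr4 and Nr4a3 fell and Ier2 rose, by edgeR's quasi-likelihood test with Benjamini-Hochberg adjustment over all 17558 genes. Called lower were 5 of the 10 genes and called higher 1, while of all genes tested 17.3% were lower and 22.7% higher. Arc, Npas4, Nr4a1 and Nr4a2 did not pass. Without overlap between the groups, 8 genes were lower and 1 was higher in Vehicle mice, against 18.8% and 20.7% of all genes. The median log2 fold change of the 10 genes was -0.96, against 0 over all genes. A hemisphere with fewer neurons and one whose neurons hold less of these RNAs cannot be told apart in bulk RNA.

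The Egr genes encode zinc finger transcription factors that bind the same GC-rich site. Egr1, the most abundant member, had 404, 328, 372 and 398 CPM in Sham mice 1 to 4 and 126, 154, 266 and 252 CPM in Vehicle mice 1 to 4. The lowest Sham mouse was above the highest Vehicle mouse, and the level fell by 0.91 on the log2 scale (standard error, SE, 0.24, edgeR adjusted p = 0.00942). Egr3, which muscle spindles also need for their development, had 233, 214, 237 and 218 CPM in Sham and 71.7, 40.7, 182 and 164 CPM in Vehicle mice. The groups did not overlap, and Vehicle mice 1 and 2 were far below the other two. Egr3 fell by 0.98 (SE 0.36, edgeR adjusted p = 0.0465). This call was lost without any single LJP mouse (edgeR adjusted p from 0.0516 to 0.0608) and in a fit of these 2 groups alone (0.0945). It was also lost without any single Sham mouse, without Vehicle mouse 1 (edgeR adjusted p = 0.117) and with scaling by library size alone (0.0562). Egr4 had 68.8, 56, 69.3 and 72.7 CPM in Sham and 23.6, 12.2, 48.2 and 45 CPM in Vehicle mice. It fell by 1.05 (SE 0.35, edgeR adjusted p = 0.0308), and did not pass in the fit of these 2 groups alone (edgeR adjusted p = 0.0568). Nor did Egr4 pass without Sham mouse 1, 3 or 4 or without Vehicle mouse 1 (edgeR adjusted p = 0.0806 for the last). Egr2, a factor best known for its role in Schwann cells and also induced in neurons, was scarce, with 8.48, 8.23, 6.69 and 8.45 CPM in Sham and 1.59, 4.38, 4.79 and 3.39 CPM in Vehicle mice. Its groups did not overlap and it fell by 1.17 (SE 0.37, edgeR adjusted p = 0.0244). The Egr2 call was lost without Sham mouse 1, 2 or 4 and without Vehicle mouse 1 (edgeR adjusted p = 0.0532 for the last). Schwann cell markers summed to 3.17 to 4.35 CPM in Sham and 2.59 to 9.62 CPM in Vehicle mice.

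The Nr4a genes encode orphan nuclear receptors of which Nr4a1 is the classic activity-induced member. Nr4a3 had 28.7, 20.4, 25.9 and 22.6 CPM in Sham and 6.44, 4.34, 15 and 15.9 CPM in Vehicle mice. It fell by 1.24 (SE 0.38, edgeR adjusted p = 0.0229), a call lost without Sham mouse 1 or 3 and without Vehicle mouse 1 (edgeR adjusted p = 0.0625 for the last). Nr4a2, also a marker of claustrum and deep cortical neurons and of dopaminergic neurons, showed the widest split. It had 36, 42.7, 39.7 and 37.6 CPM in Sham mice, and 2.95, 3.48, 27.6 and 26.5 CPM in Vehicle mice 1 to 4. That is 7.56% and 8.92% of the Sham mean in Vehicle mice 1 and 2 and 70.7% and 68% in mice 3 and 4. The log2 fold change was -1.38 (SE 0.56, edgeR adjusted p = 0.0654), which did not pass with all 4 Vehicle mice, although no Vehicle mouse reached the lowest Sham mouse. Nr4a1 had 107, 97.4, 112 and 112 CPM in Sham mice and 29.1, 29.2, 82.3 and 86.3 CPM in Vehicle mice, a log2 fold change of -0.92 (SE 0.36, edgeR adjusted p = 0.0565) with no overlap.

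Arc encodes a synaptic protein that binds the endocytic machinery of AMPA receptors. Its levels were 171, 166, 189 and 208 CPM in Sham mice and 40.7, 27.5, 158 and 157 CPM in Vehicle mice. Vehicle mice 3 and 4 lay just below the lowest Sham mouse and mice 1 and 2 at 22.2% and 15% of the Sham mean, for a log2 fold change of -0.94 (SE 0.48, edgeR adjusted p = 0.133). Npas4 encodes a basic helix-loop-helix PAS factor that answers to calcium influx in neurons and little else. It had 15.8, 13.9, 16.3 and 16.1 CPM in Sham and 4.13, 1.42, 17.4 and 14.7 CPM in Vehicle mice. Vehicle mouse 3 was above every Sham mouse and mouse 2 at 9.13% of the Sham mean, so that the groups overlapped and the log2 fold change was -0.73 (SE 0.52, edgeR adjusted p = 0.279). By the exact two-sided permutation test the p of each of the 9 genes without overlap was 0.0286, the smallest that 4 mice against 4 allow, and that of Npas4 was 0.286.

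Ier2, a small nuclear protein that growth factors and stress also induce outside neurons, went the other way. It had 11.2, 11.4, 10.2 and 12.3 CPM in Sham mice and 30.1, 51, 14 and 16.5 CPM in Vehicle mice. All Vehicle mice were above all Sham mice, and the level rose by 1.31 on the log2 scale (SE 0.32, edgeR adjusted p = 0.00754). Within the Vehicle group its order was that of the endothelial and mural marker sum given above (mouse 2, then 1, 4 and 3), and their part in the rise was not tested. In LJP mice the order differed, since mouse 2 had the most Ier2 of its group and the lowest marker sum (299 CPM).

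Levels relative to the neuron markers were added after the data were seen. The neuron marker sum itself was lower in Vehicle than in Sham mice by 0.39 on the log2 scale, without overlap. Relative to it, Egr1 was lower by 0.58, Egr3 by 0.82, Egr4 by 0.83, Nr4a1 by 0.71, Nr4a3 by 0.97 and Nr4a2 by 1.57, each without overlap and each with an exact two-sided permutation p of 0.0286. Egr2 (-0.75, p = 0.0571 by the same exact test), Arc (-0.93, p = 0.2 by the exact test) and Npas4 (-0.80, p = 0.429 by the exact test) overlapped. Ier2 was higher by 1.48, without overlap. With Vehicle mice 1 and 2 left out, these differences were smaller and were not tested. The marker sum was then lower by 0.20, and relative to it Egr2 was lower by 0.70, Nr4a3 by 0.44, Egr1 by 0.33, Nr4a2 by 0.32, Egr4 by 0.31, Egr3 by 0.18, Nr4a1 by 0.14 and Arc by 0.02, while Npas4 was higher by 0.24 and Ier2 by 0.61. In Vehicle mouse 2 the neuron markers were at 58.7% of the Sham mean while the 9 genes other than Ier2 ranged from 8.92% for Nr4a2 to 55.1% for Egr2, the latter close to the markers.

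**Figure D2:**
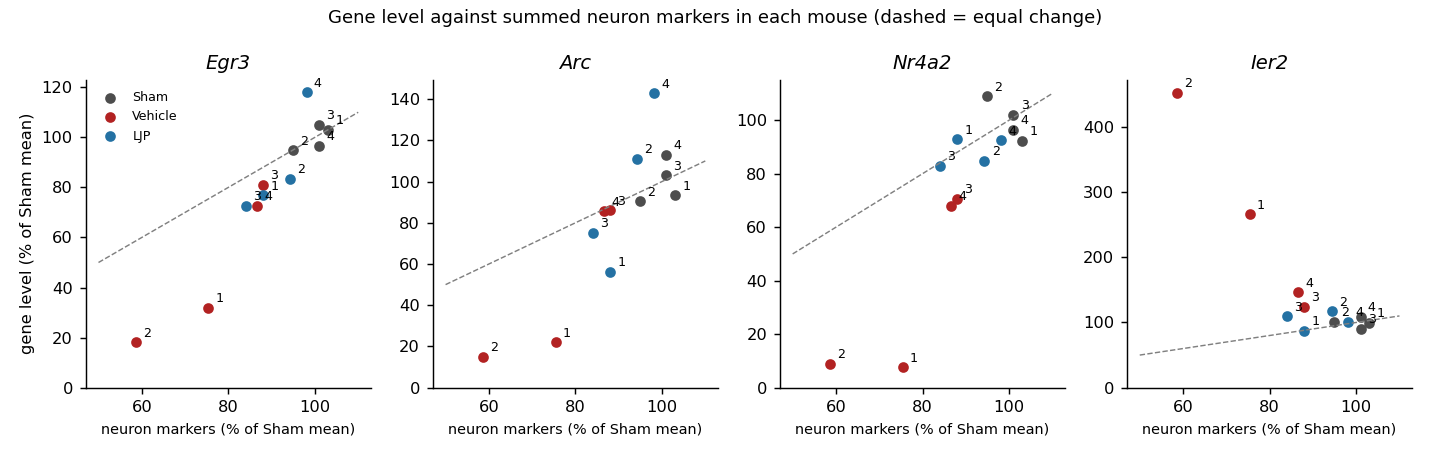
Level of Egr3, Arc, Nr4a2 and Ier2 (vertical axis, percent of the Sham mean) against the summed neuron markers (horizontal axis, percent of the Sham mean) in each of the 12 mice, numbered by replicate within the group. On the dashed line gene and markers change equally. Vehicle mice 1 and 2, with neuron markers at 75.4% and 58.7%, fall far below the line for the first 3 genes and far above it for Ier2.

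Without Vehicle mice 1 and 2, a choice also made after the data were seen, 3 of the 10 genes differed from Sham. Egr1 was lower by 0.54 (edgeR adjusted p = 0.0252) and Nr4a2 by 0.53 (edgeR adjusted p = 0.000338), while Ier2 was higher by 0.43 (edgeR adjusted p = 0.0261). The background was then 14% of genes lower and 15.7% higher. The log2 fold changes of the other genes were -0.96 for Egr2, -0.67 for Nr4a3, -0.52 for Egr4, -0.39 for Egr3, -0.35 for Nr4a1, -0.23 for Arc and 0.04 for Npas4. Nr4a2 passed in this setting and not in the edgeR fit of the 3 groups over all mice. DESeq2 on all mice called 6 lower, the 5 above and Nr4a1, and Ier2 higher, against backgrounds of 14.5% and 18.8%. Single mice also moved the count. Leaving out Vehicle mouse 1 left 1 gene lower and 1 higher (backgrounds 14.3% and 20.3%), and leaving out Sham mouse 1 left the same numbers (11.3% and 18.2%), shares of the 10 genes that lie near the background. Without Sham mouse 3 or Sham mouse 4 there were 2 lower and 1 higher (12.4% and 18.7%, then 13.7% and 19.1%), and without Sham mouse 2 there were 3 lower and 1 higher (12.8% and 18.8%). Leaving out Vehicle mouse 3 or Vehicle mouse 4 gave 7 lower and 1 higher (20.6% and 25.3%, then 18.7% and 23.9%).

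The second comparison, LJP against Vehicle, asks whether LJP altered the response to ischemia. No member was called by edgeR's quasi-likelihood test, in a comparison in which 0.0228% of all genes were called lower and 0% higher. At an unadjusted p below 0.05, 7 of the 10 genes were higher, against 12.3% of all genes, and Ier2 was lower, against 17.4%. At the thresholds of the study's methods, a log2 fold change beyond 0.58 in either direction and p below 0.01 before adjustment, Ier2 alone passed (5.89% of all genes were lower and 1.07% higher by this rule). All 9 other log2 fold changes were positive, with a median over the 10 genes of 0.87 against 0 over all genes. Both comparisons use the same Vehicle mice, so the 2 sets of values are not independent.

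Nr4a2 and Npas4 were higher in every LJP mouse than in every Vehicle mouse, and Ier2 was lower, while the groups of the other 7 genes overlapped. By the same rule 5.77% of all genes were higher and 5.91% lower. Nr4a2 had 36.2, 33.1, 32.4 and 36.1 CPM in LJP mice 1 to 4, a log2 fold change of 1.20 against Vehicle (SE 0.56, edgeR adjusted p = 0.169). The LJP mice were close to each other (coefficient of variation 5.83%), all above the highest Vehicle mouse at 27.6 CPM, and 2 of them were within the Sham range. Npas4 had 18.6, 30.6, 19.1 and 25.7 CPM in LJP mice, each above the highest Vehicle mouse (17.4 CPM), with a log2 fold change of 1.33 (SE 0.53, edgeR adjusted p = 0.125). Ier2 had 9.86, 13.2, 12.5 and 11.4 CPM in LJP mice, against 14 to 51 CPM in Vehicle mice, and a log2 fold change of -1.25 (SE 0.32, edgeR adjusted p = 0.0678). The exact two-sided permutation p of each of these 3 was 0.0286.

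LJP mouse 4 was the highest of all 12 mice for each of the 7 genes whose groups overlapped. In LJP mice 1 to 4, Egr1 had 272, 288, 218 and 408 CPM, Egr3 173, 188, 164 and 266 CPM, and Egr4 51.1, 63.5, 41.4 and 88.1 CPM. Their log2 fold changes against Vehicle were 0.57, 0.79 and 0.92, with 95% intervals of 0.06 to 1.08, 0.01 to 1.57 and 0.17 to 1.68 before adjustment for the number of genes. Arc had 103, 203, 138 and 262 CPM, below Vehicle mice 3 and 4 in 2 LJP mice and above them in the other two, and a log2 fold change of 0.88 (interval -0.15 to 1.92). Nr4a1 showed the same split, with 60.9, 125, 75.6 and 128 CPM in LJP mice and a log2 fold change of 0.78. Egr2 (5.31, 3.83, 4.62 and 11.9 CPM) and Nr4a3 (21, 14.6, 13.7 and 33.3 CPM) were highest in LJP mouse 4, with log2 fold changes of 0.86 and 0.99.

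The sizes of these differences rest on Vehicle mice 1 and 2 and, for several genes, on LJP mouse 4. Without LJP mouse 4 none was called, and the log2 fold changes against Vehicle were 0.38 for Egr1 and for Egr2, 0.61 for Egr3, 0.69 for Egr4, 0.63 for Arc, 0.62 for Nr4a1 and 0.67 for Nr4a3, with 1.28 for Npas4, 1.18 for Nr4a2 and -1.24 for Ier2. Without Vehicle mice 1 and 2, no member was called and the log2 fold changes of the 9 genes shrank to between 0.16 (Arc) and 0.64 (Egr2), with 0.55 for Npas4 (edgeR adjusted p = 0.229) and 0.35 for Nr4a2 (edgeR adjusted p = 0.155). That of Ier2 was -0.38 (edgeR adjusted p = 0.257). Without Vehicle mouse 3, in contrast, Egr1, Egr3, Egr4 and Npas4 were called higher and Ier2 lower, against backgrounds of 8.46% and 13.1%. Ier2 was also called lower without Vehicle mouse 4 (background 8.38%), and by DESeq2 on all mice (log2 fold change -1.25, DESeq2 adjusted p = 0.00499, background 8.99%). Relative to the neuron markers, the differences without overlap were 1.49 for Npas4, 1.54 for Nr4a2 and -1.29 for Ier2. The share of all genes without overlap on this scale was not computed, while without scaling it was 5.77% higher and 5.91% lower. The neuron marker sum itself was 0.25 higher in LJP mice with overlap (exact permutation p = 0.114). With Vehicle mice 1 and 2 left out the relative differences, not tested, were 0.45, 0.28 and -0.43 for these 3 genes and 0.06 for the sum.

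**Figure D3:**
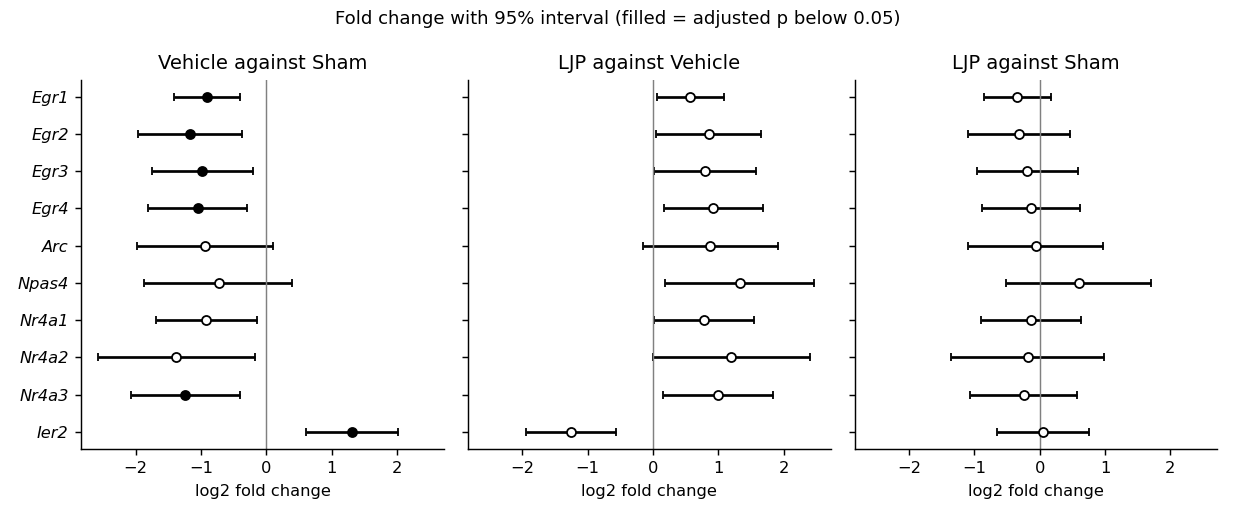
Log2 fold change (horizontal axis) of the 10 genes in the 3 comparisons, as points with 95% intervals before adjustment for the number of genes. Filled points passed an adjusted p below 0.05: 6 in Vehicle against Sham and none in the other panels. Intervals of LJP against Sham include 0 for all 10 genes.

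The third comparison, LJP against Sham, asks what difference remained. None of the 10 genes was called by edgeR or by DESeq2, and none had an unadjusted edgeR p below 0.05, while 0.9% of all genes were called lower and 3.85% higher by edgeR. Every 95% interval included 0, and the widest, for Nr4a2, ran from -1.35 to 0.99. Its lower end is close to the difference of Vehicle from Sham (-1.38), but the fit shares its spread with the Vehicle mice. Without Vehicle mice 1 and 2 the Nr4a2 value was -0.19 (SE 0.07, edgeR adjusted p = 0.0617), against an SE of 0.54 with them. For Egr1 the log2 fold change was -0.34 with an interval of -0.85 to 0.17, and for Ier2 it was 0.05 with an interval of -0.65 to 0.76. LJP mouse 4 bears on these values. Without it none was called, and Egr2 stood at -0.79, Nr4a3 at -0.57 and Egr1 at -0.53. The values of 8 genes were below 0 and those of Npas4 and Ier2 above it. For Npas4 every LJP mouse was above every Sham mouse, as 12.9% of all genes were, with a mean of 23.5 ± 5.73 CPM (SD, n = 4) against 15.5 ± 1.1 CPM (SD, n = 4), a log2 fold change of 0.60 (SE 0.51, edgeR adjusted p = 0.586) and an exact permutation p of 0.0286. With Vehicle mice 1 and 2 left out of the shared fit, Npas4 was called higher (0.59, edgeR adjusted p = 0.00723), as were 12.3% of all genes, and it was also called in a fit of the LJP and Sham mice alone (background 12.1%).

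The remaining activity genes were grouped in 4 lists written from general knowledge. Of the other rapid activity genes, 29 were tested, of which 13 rose and 3 fell in Vehicle mice, against 22.7% and 17.3% of all genes. Their median log2 fold change was 0.54, opposite in sign to that of the 10 genes. Maff, a small MAF factor, rose by 3.16 (SE 0.45, edgeR adjusted p = 0.000443), Zfp36, which destabilizes cytokine mRNAs, by 2.71 (SE 0.48, adjusted p = 0.00136 by edgeR) and Gadd45g, a stress response gene, by 1.96 (SE 0.34, edgeR adjusted p = 0.00134). Fos, the best known immediate early gene, stood at 0.20 on the log2 scale (edgeR adjusted p = 0.562) and Fosb at -0.60 (edgeR adjusted p = 0.0831); the pair was chosen after the values were seen. Without Vehicle mice 1 and 2 the list had 7 higher and 1 lower (backgrounds 15.7% and 14%) and a median of 0.04, with 2.01 for Maff, 1.46 for Zfp36, 0.99 for Gadd45g and -0.32 for Fos. Of these the first 3 were still called. In LJP mice the median was -0.58 against Vehicle with none called by edgeR, and 11 of the 29 were lower at the thresholds of the study's methods, against 5.89% of all genes. Its smallest p-values belonged to Ier3, an apoptosis regulator (-1.82, SE 0.42), Apold1, an endothelial early response gene (-2.15, SE 0.52) and Maff (-1.70, SE 0.42), all 3 at an adjusted p of 0.0678 by edgeR. With Vehicle mice 1 and 2 left out these values were -0.55, -0.63 and -0.56, the median was -0.10 and none was called.

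Delayed activity genes form the second wave. Of 18 tested, 7 fell and 4 rose in Vehicle mice, against 17.3% and 22.7% of all genes, with a median of -0.49. The share that rose is near the 22.7% of all genes. Without Vehicle mice 1 and 2, 7 were lower and 2 higher, against 14% and 15.7% of all genes, and the median was -0.27. Rem2, a small GTPase that answers to activity at synapses, fell by 1.63 (SE 0.30, edgeR adjusted p = 0.0018) and Rgs4, a regulator of G protein signaling, fell by 1.36 (SE 0.27, edgeR adjusted p = 0.00238). Mmp9, a matrix protease that neutrophils also carry, rose by 4.11 (SE 0.83, edgeR adjusted p = 0.00269), and by 1.52 without Vehicle mice 1 and 2 (edgeR adjusted p = 0.0156). Bdnf, the neurotrophin, fell by 0.86 (edgeR adjusted p = 0.0102) and Homer1, a postsynaptic scaffold, fell by 1.03 (edgeR adjusted p = 0.00957); both were named after their values were seen. Rem2 was lower by 1.38, Rgs4 by 0.86, Bdnf by 0.53 and Homer1 by 0.54 without Vehicle mice 1 and 2, all 4 still called. Against Vehicle the list had none called by edgeR in LJP mice, 1 lower and 1 higher at the thresholds of the methods (5.89% and 1.07% of all genes), and a median of 0.28. The smallest p-values belonged to Mmp9 (-3.69, SE 0.80), Rem2 (1.02, SE 0.30) and Plk2, a kinase that weakens overactive synapses (0.28, SE 0.09), with adjusted p of 0.0678, 0.072 and 0.0805 by edgeR. They were at -1.10, 0.76 and 0.21 without Vehicle mice 1 and 2, and the median was 0.17.

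The inducing kinases and transcription factors numbered 28, of which 11 fell and 4 rose, against 17.3% and 22.7% of all genes, with a median of -0.22. The 4 that rose are a share near or below the background. Without Vehicle mice 1 and 2, 13 were lower and 2 higher, against 14% and 15.7% of all genes, and the median was -0.15. Ppp3ca, the catalytic subunit of calcineurin, fell by 0.85 (SE 0.13, edgeR adjusted p = 0.000541). Mapk3, which encodes ERK1, rose by 0.58 (SE 0.08, edgeR adjusted p = 0.000376) and Elk3, a ternary complex factor of SRF found in endothelium, rose by 2.33 (SE 0.38, edgeR adjusted p = 0.000851), and by 1.42 without Vehicle mice 1 and 2 (edgeR adjusted p = 7.19e-05). In LJP mice against Vehicle none was called by edgeR, 1 was lower at the thresholds of the methods (5.89% of all genes), and the median was 0.14. Among the smallest p-values were those of Elk3 (-1.48, SE 0.36) and Ppp3ca (0.43, SE 0.13), with adjusted p of 0.0678 and 0.072 by edgeR. These were -0.57 and 0.23 without Vehicle mice 1 and 2, and the median was 0.06. Of the partners and inhibitors of the 10 genes, 9 were tested, of which 2 fell and 1 rose in Vehicle mice, shares near or below the background, with a median of -0.05. Rxrg, a retinoid X receptor that pairs with NR4A proteins and is abundant in striatum, fell by 2.40 (SE 0.45, edgeR adjusted p = 0.002) and Trib2, a pseudokinase, fell by 0.67 (SE 0.12, edgeR adjusted p = 0.00178). Rxra rose by 0.48 (SE 0.12, edgeR adjusted p = 0.00833), and did not pass without Vehicle mice 1 and 2 (0.23, edgeR adjusted p = 0.0568). In LJP mice against Vehicle none was called or passed the thresholds of the methods, the median was 0.05, and Rxra (-0.34, SE 0.12), Nab2, a corepressor of EGR proteins (0.26, SE 0.09) and Rxrg (1.07, SE 0.44) had the smallest p-values, with adjusted p of 0.0962, 0.0975 and 0.136 by edgeR. The same genes stood at -0.10, 0.18 and 0.51 without Vehicle mice 1 and 2, and the median was 0.11.

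**Figure D4:**
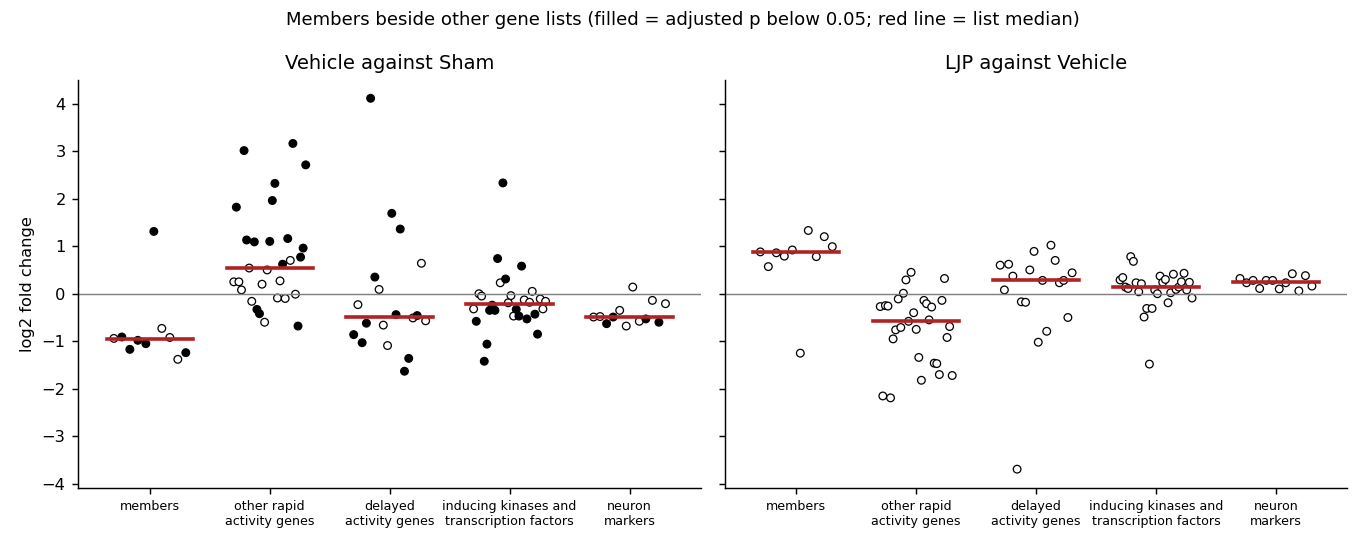
Log2 fold change (vertical axis) of the 10 genes (left column of each panel) and of 3 lists of activity genes and the neuron markers, in Vehicle against Sham and LJP against Vehicle. Each point is a gene, filled where the adjusted p is below 0.05, and the red line is the median of the list. The medians of the 10 genes are -0.96 and 0.87, those of the other rapid activity genes 0.54 and -0.58.

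Marker lists of the cell types in a hemisphere were counted in the same way, against the same 17.3% lower and 22.7% higher of all genes. Of the 12 neuron markers 4 fell in Vehicle mice, with a median of -0.49, while Slc17a7 had a log2 fold change of 0.14 (SE 0.11, edgeR adjusted p = 0.316). Of 10 microglia and macrophage markers 9 rose (median 2.10, sums of 255 to 265 CPM in Sham and 712 to 1170 CPM in Vehicle mice) and of 10 endothelial and mural markers 7 rose (median 1.24). In LJP mice 1 to 4 the microglia and macrophage markers summed to 917, 496, 964 and 497 CPM, so that this group was split as well. The highest microglial marker was Csf1r in Sham and LJP mice and C1qa in Vehicle mice. Astrocyte markers had 3 higher and 1 lower of 7, with Slc1a2 the highest in Sham and LJP mice and Gfap in Vehicle mice. Oligodendrocyte lineage markers, led by Mbp, had 1 higher of 7, and the Schwann cell list, led by Prx, had 2 genes tested and none called. In the T and B cell list Cd4 alone was abundant enough to test and fell by 2.54, so this value does not stand for the list. The other markers of that list summed to 0.163 to 0.603 CPM in Sham mice and to 0.454, 1.89, 0.269 and 0.808 CPM in Vehicle mice 1 to 4. In LJP against Vehicle no gene of these lists was called by edgeR, while at the thresholds of the methods 8 endothelial and mural, 1 microglial and 1 Schwann cell marker were lower (5.89% of all genes) and Cd4 was higher (1.07%). When Vehicle mice 1 and 2 were left out, 14% of all genes were lower and 15.7% higher than in Sham mice. Of the neuron markers 7 were then lower, with a median of -0.31, and Slc17a7 was called higher (0.26, edgeR adjusted p = 0.0275). Endothelial and mural markers then had 6 higher and a median of 0.43, microglial markers 9 higher and a median of 1.87, astrocyte markers 4 higher and 1 lower, oligodendrocyte lineage markers 3 higher, and Cd4 was lower by 2.35. In LJP against Vehicle without those mice the median of the endothelial and mural markers was -0.50, against -1.32 with them, and no marker was called.

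Genes whose level followed the members across the 12 mice were named for Egr1, Arc, Nr4a1 and Npas4 by Pearson r of log2 CPM. For Arc the highest r among other genes was with Camk2a (0.984), the calcium/calmodulin kinase of excitatory synapses, Kalrn (0.983) and Nrn1 (0.982). Without Vehicle mice 1 and 2, the mice farthest from the median of Arc, these were 0.891, 0.844 and 0.829, and for deviations from the group means over all mice each was 0.974. Nr4a1 was also most like Camk2a (0.982), followed by Cds1 (0.978) and Ipo9 (0.976), and without those mice r was 0.936, 0.921 and 0.925. Egr1 was most like Il1rapl1 (0.984), Raph1 (0.974) and Ntm (0.974), with r of 0.958, 0.914 and 0.913 without those mice. Npas4 was most like Mir124a-1hg, the host gene of the neuronal miRNA miR-124 (0.990), Ntrk2 (0.985), the receptor of BDNF, and Crhbp (0.983), with r of 0.950, 0.792 and 0.846 without those mice. These values are a description over mice that share groups and library scaling.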

How the data were processed

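Poly(A) RNA was sequenced from 12 mice, by the study's methods from ischemic hemispheres, although the Sham mice had no ischemia. The authors deposited raw read counts per gene and mouse without normalization. Per the labels' processing notes featureCounts and DESeq2 were used, with the builds GRCm39 and mm10 both listed, and the aligner and the strand setting are not given in the sources used here. Gene positions in the deposited count table fit GRCm38 (9 of the 10 genes had an end within 2 bases of GENCODE M21), so coordinates are given on that build. Reads shared by overlapping genes may be split in ways not stated.

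The analysis used edgeR 4.0.16 in R 4.3.3, with filterByExpr to drop scarce genes, TMM scaling, and 1 quasi-likelihood fit of the 3 groups over the 12 mice. P-values were adjusted by Benjamini-Hochberg over 17558 genes and called below 0.05. Exact permutation tests were two-sided, on log2 of CPM plus 0.5. Log2 CPM for correlations used a prior count of 2. Plots were drawn with matplotlib 3.10.9. The code was tested on simulated counts. Alternatives were DESeq2 1.42.0, RLE factors, library size alone, keeping scarce genes, fitting just the 2 groups compared, the replicate block, other thresholds, a pseudocount of 1 and leaving out each mouse. Leaving out Vehicle mice 1 and 2, scaling to the neuron markers, and both together were added after the data were seen.

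The members and lists were chosen with earlier results of these data known. Named were all 10 genes, the 3 genes of each activity list with the smallest p in Vehicle against Sham and in LJP against Vehicle, the 3 non-members most like Egr1, Arc, Nr4a1 and Npas4, the highest marker of cell type lists and any listed gene called in LJP against Vehicle, of which there was none. A gene that this rule names among the inducing kinases and transcription factors is not reported here. The other genes named are said to be chosen after their values were seen.

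Samples were taken as separate mice from the labels. Pairs of mice within a group differed by more than sampling noise (the lowest chi-square per degree of freedom was 2.56). Promoter sequences came from RefSeq (GRCm38.p6), and proteins were not analysed here.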

Additional observations from a re-analysis of the deposited data

Results flagged for a closer look

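Among the 30 sets of 4 mice formed by 10 genes and 3 groups, 1 held a mouse far from the others. Egr2 in Sham mouse 3 was at 6.69 CPM, below the other Sham mice, with the gap to the nearest mouse making up 0.861 of the range of the group. Chance marks about 1 in 20 such sets, or 1.5 of 30. The Sham range of Egr2 stayed above all 4 Vehicle mice with this mouse included.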

How the results depend on the processing

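Of the 10 genes, 6 were called in Vehicle against Sham. The count was between 2 and 8 when single mice were left out (11.3% to 20.6% of all genes lower and 18.2% to 25.3% higher), and 3 without Vehicle mice 1 and 2, where Npas4 turned to 0.04, or 0.24 relative to the neuron markers. Fitting just these 2 groups called 4, without Egr3 and Egr4 (11.6% of all genes lower and 19.1% higher), and scaling by library size alone called 5, without Egr3 (13.1% and 27%). The replicate numbers do not pair the mice (correlations of deviations between -0.32 and 0.11, 1 of 12 over 0.1). With the replicate block 8 genes were called, Nr4a1 and Nr4a2 in addition (15.1% of all genes lower and 19.7% higher), and none in the other comparisons. In LJP against Vehicle the count of 0 became 1 with no filter (1.8% of all genes lower), with DESeq2 and with the thresholds of the study's methods, each time Ier2, and was between 0 and 5 without single mice. In LJP against Sham the count of 0 became 1, Npas4, in the fit of the 2 groups and without Vehicle mice 1 and 2. Small differences of LJP from Sham turned sign without 1 mouse. Egr4 lay between -0.36 and 0.02 (without LJP mouse 3), Arc between -0.31 and 0.13 (without LJP mouse 1; 0.01 without Sham mouse 4 and 0.04 without LJP mouse 3), and Nr4a1 between -0.30 and 0.04 (without LJP mouse 1), while Ier2 was -0.01 without LJP mouse 2. None of these was called. The cause of these shifts was not tested, beyond the fewer mice or genes each setting leaves. Depth limits only levels near the 0.129 to 0.173 CPM that a count of 3 equals, and every member was above them.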
